A study of Mus musculus with 18 samples.

Results

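The genes described here are 41 mouse genes known to be switched on by interferons, followed from reprogramming cultures to induced pluripotent stem cell (iPSC) clones. They are a named list of interferon-induced genes, drawn up with earlier results of these data known. A probe set that the platform annotation gives to 1 gene was found for 39 of the 41, and Isg15 and Ifi44 were not analysed here. The 39 belong to 17903 genes measured in this way, each represented by whichever of its probe sets averaged highest over all 18 arrays.

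Expression was measured on 18 Affymetrix arrays, 1 per sample, in mouse cells undergoing or past reprogramming, with or lacking the transcription factor Tcf3 (gene symbol Tcf7l1), which binds DNA together with beta-catenin. The study asked what its loss does to reprogramming. The first set of samples was Tcf3 knockout (ko) and Tcf3 wild-type (wt) cultures reprogrammed with OCK (Oct4, c-Myc and Klf4), taken on days 11, 15, 19, 22 and 26, each genotype having a single array a day (1 each). The second was a partially reprogrammed OCK clone of Tcf3 wt genotype, that is, cells that had left the starting state without reaching pluripotency, labelled day 2 and treated with 1 of 2 Tcf3 siRNAs (siTcf3-A and siTcf3-B) or with a control siRNA (siCtrl), 1 array each. The third was 5 arrays of established iPSC clones: 2 OCK Tcf3 ko clones, 2 Tcf3 ko clones made with OSK (Oct4, Sox2 and Klf4) and 1 OSK Tcf3 wt sample. All groups therefore carried introduced Oct4 and Klf4. The partial samples come from 1 clone, and the labels do not say whether arrays of a group were grown apart, so a p-value here covers only the spread among these arrays. Precision is limited by how few arrays there are. In bulk samples, fewer cells of a type and less RNA per cell cannot be told apart.

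Interferons are secreted signals. Type I interferons bind the receptor Ifnar1/Ifnar2, whose kinases Jak1 and Tyk2 activate Stat2, which acts with Irf9 in a complex that binds the interferon-stimulated response element (ISRE) in the promoters of target genes. Interferon gamma acts through another receptor and another promoter element, the gamma-activated site (GAS). The induced genes code for sensors and effectors of antiviral defence, for antigen processing and for chemokines, and pluripotent stem cells are known to respond weakly to interferon.

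The promoters of 6 of these genes are shown as examples of the 2 kinds of element. The stretches are from RefSeq promoter windows (250 bases before to 50 after the start of the gene, build GRCm38.p6), read 5′ to 3′ in the direction of the gene, with capitals on each match to the ISRE core (GAAA, any 2 bases, GAAA) or, in Irf1, to the GAS core TTCNNNGAA, both searched on both strands. Ifit1, Ifit3, Gbp3 and Rsad2 match the ISRE core on the reverse strand, so the capitals there read TTTC at both ends, and the 2 matches in Gbp3 overlap.
Ifit1, chr19:34640760-34640838, plus strand: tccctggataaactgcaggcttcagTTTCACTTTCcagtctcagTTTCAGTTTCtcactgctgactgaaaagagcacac
Ifit3, chr19:34583348-34583441, plus strand: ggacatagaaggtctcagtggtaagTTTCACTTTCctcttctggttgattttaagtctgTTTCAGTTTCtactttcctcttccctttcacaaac
Gbp3, chr3:142559974-142560039, plus strand: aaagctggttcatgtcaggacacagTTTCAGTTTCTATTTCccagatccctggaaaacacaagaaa
Rsad2, chr12:26456538-26456597, minus strand: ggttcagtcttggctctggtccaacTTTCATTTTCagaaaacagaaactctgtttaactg
Cxcl10, chr5:92349068-92349127, minus strand: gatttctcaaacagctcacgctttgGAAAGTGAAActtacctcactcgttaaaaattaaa
Irf1, chr11:53769899-53769957, plus strand: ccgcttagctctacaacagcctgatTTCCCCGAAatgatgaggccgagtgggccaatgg

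Of the 39 measured genes, 30 were matched in the promoter table. The ISRE core was found in 13 of those 30, against 3.99% of the 27025 genes with a window, and the GAS core in 9 of 30, against 9.55%. Both cores were present in 4 genes (Bst2, Eif2ak2, Ifitm3 and Oas1a) and neither in 12. A match describes letters in this window and is not evidence of binding. Genes with the GAS core alone were Ifi35, Ifit2, Irf1, Isg20 and Psmb8. They changed by -0.124, -0.165, -0.023, -0.063 and -0.127 log2 per day in the cultures described below. Genes with the ISRE core ran from -0.36 (Cxcl10) to -0.04 (Ifitm3) per day. Whether the kind of element goes with the course was not tested. Several of the genes share a chromosome: Ifit1, Ifit2 and Ifit3 are all on chromosome 19, the 5 Oas genes and Cxcl10 on chromosome 5, Tap1, Psmb8 and Psmb9 on chromosome 17, Gbp2 and Gbp3 on chromosome 3, and Parp9, Parp14 and Dtx3l on chromosome 16.

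The deposited values are log2 signals with a lowest value of 5.64, the log2 of 50, below which levels had been set to this floor. Between 12102 and 12499 genes lay above it on each array. The targeted gene Tcf7l1 was lower, though never at the floor, in each Tcf3-depleted sample set against its control: 8.10 to 9.48 in ko cultures against 9.06 to 9.90 in wt cultures, lower on each of the 5 days. Tcf7l1 was 8.80 and 8.77 with the Tcf3 siRNAs against 9.93 with control siRNA, and 9.49 and 9.37 in OSK ko clones against 10.68 in the OSK wt sample. The sources used here do not say whether its probes lie in the deleted part.

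Across the 18 arrays the interferon-induced genes separated early cultures from late ones, and the partial clone from the established clones. Their median log2 signal was 10.17, 9.92, 8.30, 8.49 and 7.85 in ko cultures on days 11, 15, 19, 22 and 26, and 10.09, 10.70, 9.66, 8.13 and 8.06 in wt cultures on the same days. It was 8.43 and 8.40 in the partial clone with Tcf3 siRNA and 8.68 with control siRNA. In the established clones it was 6.02 and 6.06 (OCK ko), 5.90 and 5.87 (OSK ko) and 5.80 (OSK wt). Between 36 and 39 of the genes were above the floor on each culture array, 37 or 38 on the partial arrays and 21 to 26 on the established arrays.

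**Figure D1:**
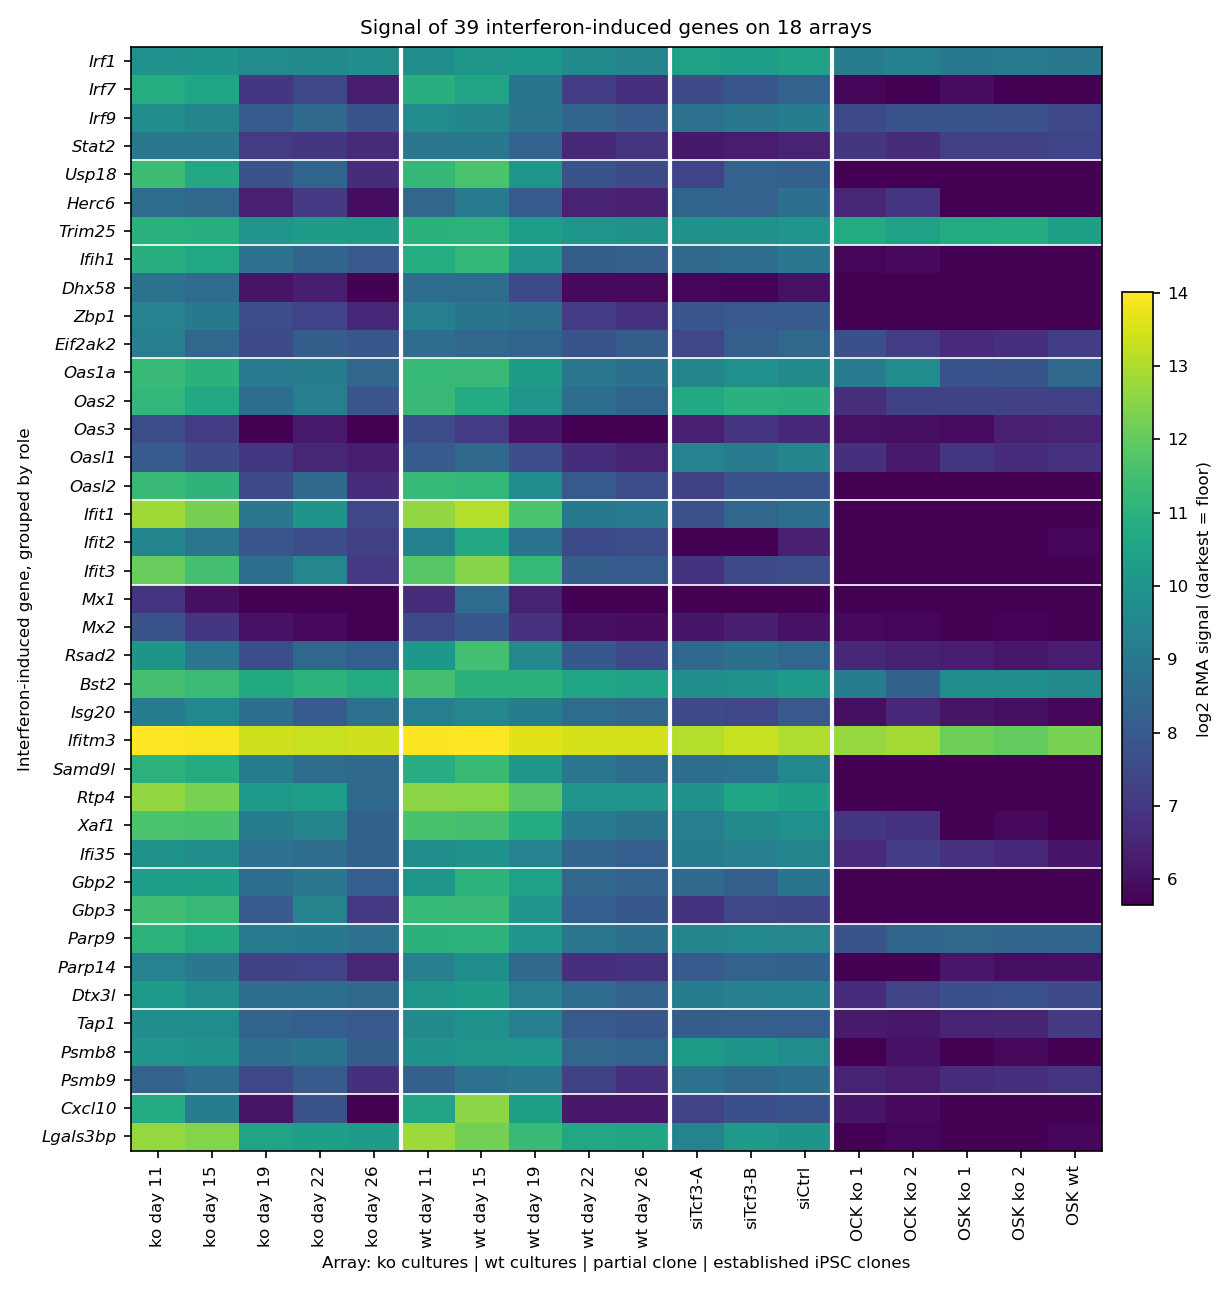
Log2 RMA signal of 39 interferon-induced genes (rows, grouped by role) on 18 arrays (columns; ko cultures, wt cultures, the partial clone and the established iPSC clones), with the darkest colour at the floor of 5.64. Most rows are brightest on days 11 and 15, and 10 genes are at the floor on all 5 established arrays, as are 27.4% of all genes.

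Interferon-induced genes fell over the culture. In a limma fit of straight lines to the 10 culture arrays, 37 of the 39 genes fell per day in the mean of both genotypes (adjusted p between 0.00266 and 0.0421), against 18.7% of 13428 genes tested that fell and 18% that rose. The median change was -0.17 log2 per day, against -0.0011 over all genes tested, and all 39 estimates were negative. The exceptions were Irf1, with -0.02 ± 0.01 (SE) per day and adjusted p = 0.157, and Mx1, with -0.11 ± 0.04 and adjusted p = 0.0595. The 7 most negative slopes among all 13428 genes were those of Cxcl10, Ifit1, Ifit3, Irf7, Usp18, Oasl2 and Gbp3. The calls rest on day 11: without the day 11 arrays 0 genes passed in limma, of these 39 or of all genes, although 3954 of all genes had an unadjusted p under 0.05. With a line through the 5 day means in place of 10 separate arrays, 29 of the 39 passed.

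The signalling factors showed both extremes. Irf7, the transcription factor that amplifies type I interferon production, had 10.83, 10.57, 6.97, 7.45 and 6.28 in ko cultures on days 11, 15, 19, 22 and 26. In wt cultures it had 10.92, 10.53, 8.90, 7.15 and 6.81. The first 2 days were high and close in both genotypes, and the last 2 days were low in both without reaching the floor. Its change was -0.32 ± 0.04 log2 per day (adjusted p = 0.00318), and day 11 exceeded day 26 by 23.4-fold in ko and 17.3-fold in wt. Irf9, the DNA-binding part of the type I complex, fell by 0.13 ± 0.02 per day (adjusted p = 0.00392), and Stat2, its partner, fell by 0.18 ± 0.03 (adjusted p = 0.0056). Irf1, induced mainly through GAS elements, stayed between 9.62 and 9.98 in ko and between 9.44 and 10.10 in wt, and its day 11 and day 26 values differed by 1.07-fold in ko and 1.30-fold in wt.

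The ISG15 system and the sensors fell as well, 3 of 3 and 4 of 4 measured genes. Usp18, the protease that removes the ubiquitin-like ISG15 from proteins and damps receptor signalling, had 11.39, 10.69, 7.79, 8.34 and 6.74 in ko and 11.21, 11.63, 10.06, 7.81 and 7.60 in wt on the 5 days, a change of -0.31 ± 0.04 per day (adjusted p = 0.00392). Day 11 exceeded day 26 by 25.1-fold in ko and 12.2-fold in wt. Herc6, the mouse ISG15 ligase, had 8.59 on day 11 and 5.91 on day 26 in ko, and 8.42 and 6.43 in wt. Ifih1 (MDA5) and Dhx58 (LGP2), which bind double-stranded RNA, changed by -0.22 ± 0.03 and -0.23 ± 0.03 per day (adjusted p = 0.00427 and 0.00409). Zbp1, a sensor of Z-form nucleic acid, changed by -0.19 ± 0.02 (adjusted p = 0.00266). The smallest change among the sensors was that of Eif2ak2 (PKR, the kinase that halts translation), -0.06 ± 0.02 (adjusted p = 0.0291). That slope depends on the probe set: the other 2 Eif2ak2 probe sets had 8.43 and 8.35 on day 11 and 6.95 and 6.14 on day 26 in ko, and 7.97 and 7.89 on day 11 and 6.68 and 5.67 on day 26 in wt.

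All 5 measured Oas genes and all 3 Ifit genes fell. Enzymatically active Oas proteins make the messenger that activates RNase L, and the Ifit proteins bind foreign RNA. Oasl2 had 11.31, 11.08, 7.53, 8.49 and 6.69 in ko and 11.25, 11.17, 9.66, 8.0 and 7.61 in wt, a change of -0.30 ± 0.04 per day (adjusted p = 0.00402). Ifit1, whose promoter is shown above with 2 ISRE core matches, had 12.80, 12.30, 8.95, 9.97 and 7.46 in ko and 12.64, 13.09, 11.64, 9.04 and 9.11 in wt. Its change was -0.33 ± 0.05 per day (adjusted p = 0.00483), and day 11 exceeded day 26 by 40.5-fold in ko and 11.6-fold in wt. Ifit3 behaved alike, with -0.32 ± 0.05 per day (adjusted p = 0.00519) and folds of 33.3 in ko and 14.1 in wt. The other Oas genes changed by -0.13 (Oasl1) to -0.22 (Oas2) per day, and Oas3 reached the floor on day 26 in both genotypes.

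Among 10 other antiviral effectors 9 fell, the exception being Mx1. Rtp4, a receptor transporter protein, had 12.64, 12.33, 10.13, 10.32 and 8.52 in ko and 12.55, 12.51, 11.83, 10.01 and 10.004 in wt (-0.24 ± 0.03 per day, adjusted p = 0.00318). Xaf1, a partner of the apoptosis inhibitor XIAP, and Samd9l, an antiviral effector, changed by -0.23 ± 0.03 and -0.19 ± 0.03 (adjusted p = 0.00373 and 0.00392). The smallest slopes were those of Ifitm3, which blocks virus entry (-0.04 ± 0.01, adjusted p = 0.0136), Bst2 (tetherin; -0.06 ± 0.01, adjusted p = 0.00713) and Isg20, an exonuclease (-0.06 ± 0.02, adjusted p = 0.0421). Mx1, a GTPase that blocks virus replication, was above the floor only on days 11 and 15 in ko (6.89 and 5.98) and on days 11, 15 and 19 in wt (6.73, 8.57 and 6.46).

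The remaining groups, the guanylate-binding proteins (2 of 2), the Parp9 group (3 of 3), antigen processing (3 of 3) and the secreted proteins (2 of 2), also fell. Gbp3, a GTPase of cell-autonomous defence, had 11.45, 11.27, 8.05, 9.39 and 7.08 in ko and 11.25, 11.30, 10.02, 8.13 and 7.96 in wt (-0.28 ± 0.04 per day, adjusted p = 0.0052). Psmb9, an immunoproteasome subunit, had 8.29, 8.64, 7.47, 8.05 and 6.78 in ko and 8.19, 8.78, 9.0, 7.30 and 6.82 in wt (-0.10 ± 0.03, adjusted p = 0.0406). Cxcl10, a chemokine that attracts T cells, had 10.75, 9.17, 6.10, 7.79 and 5.64 in ko and 10.52, 12.55, 10.40, 6.22 and 6.18 in wt. Its change of -0.36 ± 0.08 per day (adjusted p = 0.012) was the most negative of all genes, and the ko culture was at the floor on day 26, so that day 11 exceeded it by at least 34.5-fold there, and by 20.3-fold in wt. Parp9 and Dtx3l, which form a ubiquitin ligase complex, changed by -0.17 ± 0.02 and -0.13 ± 0.02 (adjusted p = 0.00338 and 0.00392), and Tap1, the peptide transporter, by -0.14 ± 0.02 (adjusted p = 0.00602).

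**Figure D2:**
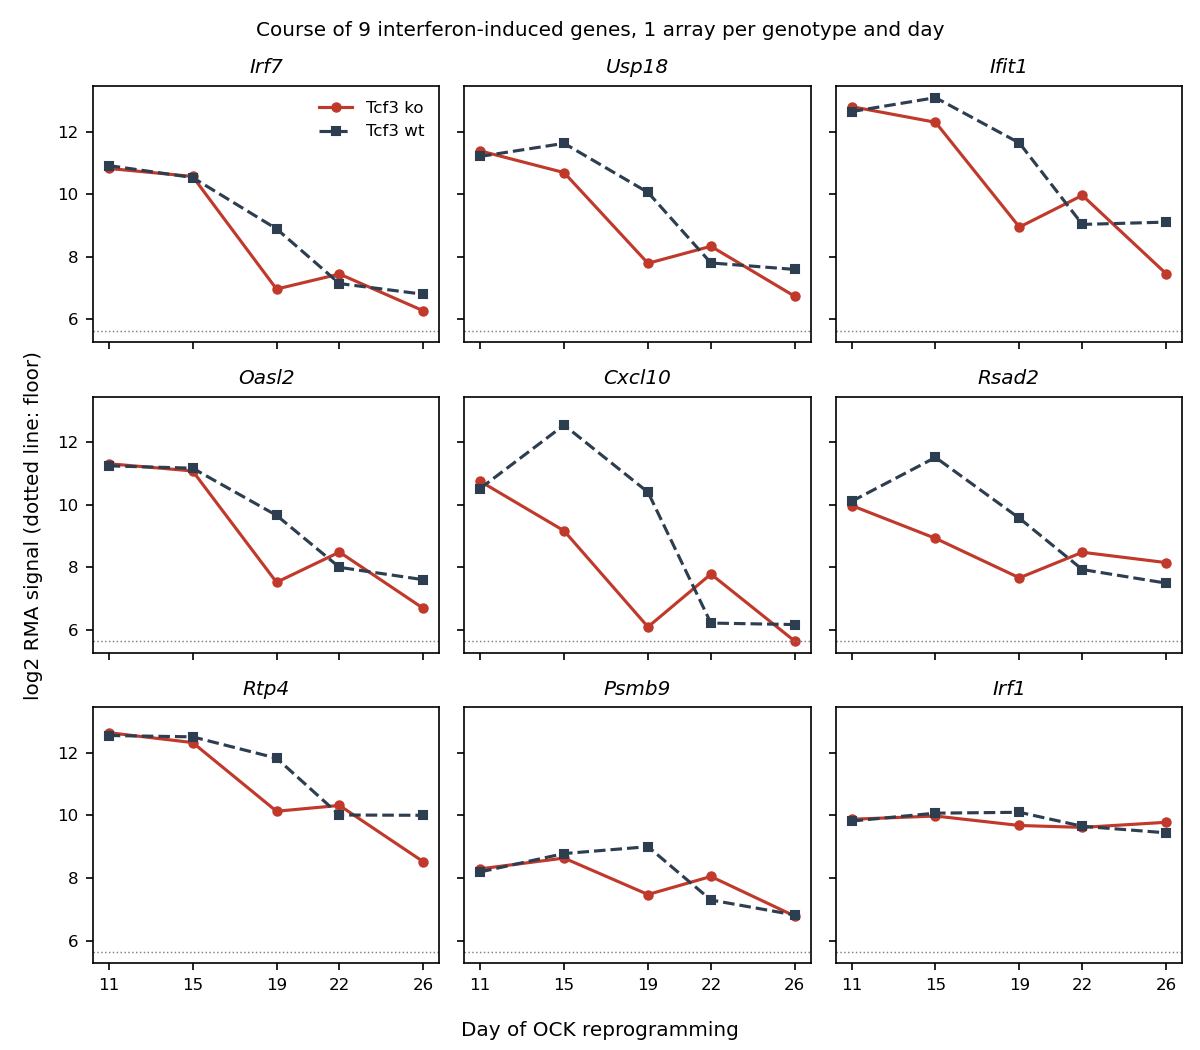
Log2 RMA signal of 9 interferon-induced genes on days 11 to 26 of OCK reprogramming in Tcf3 ko cultures (circles, solid) and Tcf3 wt cultures (squares, dashed), 1 array per point, with the floor of 5.64 dotted. On day 19 ko lies below wt for all 9 genes, and on day 22 it lies above wt for each of them except Irf1.

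In ko alone 28 of 39 genes fell per day, against 7.11% of genes tested that fell and 8.47% that rose. In wt alone 0 of 39 passed in limma (0.0532% of genes fell and 0.19% rose), with a smallest adjusted p of 0.0515, although 37 of 39 had an unadjusted p under 0.05 and the median slopes were -0.17 in ko and -0.17 in wt. The slopes were not shown to differ: 0 of 39 differences of slope passed (0% of all genes in either direction), 0 had an unadjusted p under 0.05, and the smallest adjusted p was 1. The ko count depended on single days, since it was 0 without day 11, 0 without day 15 and 6 without day 19. Estimating the variance prior over all genes, floored ones included, left 0 ko calls.

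The ko and wt cultures had their highest values and their steepest steps on different days. Every one of the 39 genes was lower on day 26 than on day 11, in ko (median -2.30) and in wt (median -2.0), against 52.7% of genes in ko and 52.0% in wt. In ko 35 genes were highest on day 11 and 4 on day 15, whereas in wt 11 were highest on day 11, 26 on day 15 and 2 on day 19. For the 33 genes that were lower on day 26 by at least 1 log2 unit in both genotypes, day 19 had reached a median of 77.3% of the fall in ko and 30.3% in wt, with the larger share in ko for 33 of 33. This is a description of 1 culture per genotype. The 33 shares rest on the same day 11, 19 and 26 arrays, so they are not 33 separate observations. No share of all genes is set beside the counts of highest days and of larger shares in ko.

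Step by step, only the fall from day 15 to day 19 passed in the mean of both genotypes. In it 23 of 39 genes fell in limma with day as a factor and genotype as a term (13.4% of genes tested fell and 13.8% rose), with a median of -1.34 over all 39. Among the 23 genes that passed, the largest falls were those of Irf7 (-2.62 ± 0.48, adjusted p = 0.0166), Oasl2 (-2.53 ± 0.57, adjusted p = 0.0246) and Gbp3 (-2.25 ± 0.66, adjusted p = 0.0457). Without the day 11 arrays 14 of 39 passed, and with the plain prior over all genes 5. From day 11 to 15, 0 of 39 passed (0.249% of genes fell and 0.132% rose), and 0 had an unadjusted p under 0.05. From day 19 to 22, 0 of 39 passed (7.78% fell and 5.13% rose), 8 had an unadjusted p under 0.05 and the smallest adjusted p was 0.0527. From day 22 to 26, 0 of 38 passed (0% in either direction), and 0 had an unadjusted p under 0.05.

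Within each genotype the steps ran in different order. Between days 11 and 15, 35 of 39 genes were lower in ko (49.7% of all genes above the floor). In wt 11 of 39 were lower (50.9%) and 28 of 39 were higher. The 4 genes that were higher in wt on day 15 by at least 1 log2 unit were Cxcl10 (2.03), Mx1 (1.84), Rsad2 (1.40) and Ifit2 (1.40). Between days 15 and 19 the median change was -1.62 in ko, with 39 of 39 lower (53.9% of all genes), and -0.99 in wt, with 36 of 39 lower (49.9%). Between days 19 and 22 it was 0.18 in ko, with 24 of 38 higher and 14 lower (49.2% of all genes were lower). In wt it was -1.40, with 39 of 39 lower (52.2%). From day 22 to 26 it was -0.62 in ko, with 35 of 38 lower (50.9% of all genes). In wt it was -0.12, with 30 of 37 lower (53.7%). On this step 12 of 38 genes in ko (1.12% of all genes) but 0 of 37 in wt (0.827%) were lower by at least 1 log2 unit.

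Set side by side on each day, the ko array lay below the wt array in 6 of 39 genes on day 11 (45.4% of all genes above the floor), 31 of 39 on day 15 (42.3%), 39 of 39 on day 19 (48.9%), 7 of 38 on day 22 (47.4%) and 28 of 37 on day 26 (42.4%). The median of ko minus wt was 0.09, -0.17, -1.14, 0.31 and -0.24 on days 11, 15, 19, 22 and 26, while the median over all genes was between 0.00 and 0.04 on these days. On day 19, 21 of the 39 genes were lower in ko by at least 1 log2 unit, against 0.934% of genes. No gene of the 39 was lower in ko on all 5 days (1.28% of all genes were). These are differences between 2 arrays, without replicates, and the difference averaged over the days did not pass: 0 of 39 genes in limma with day as a block (0% of genes in either direction), 1 with an unadjusted p under 0.05, with a median of -0.29 and 37 of 39 estimates negative. A lasting difference between the ko and the wt culture cannot be told apart from genotype.

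**Figure D3:**
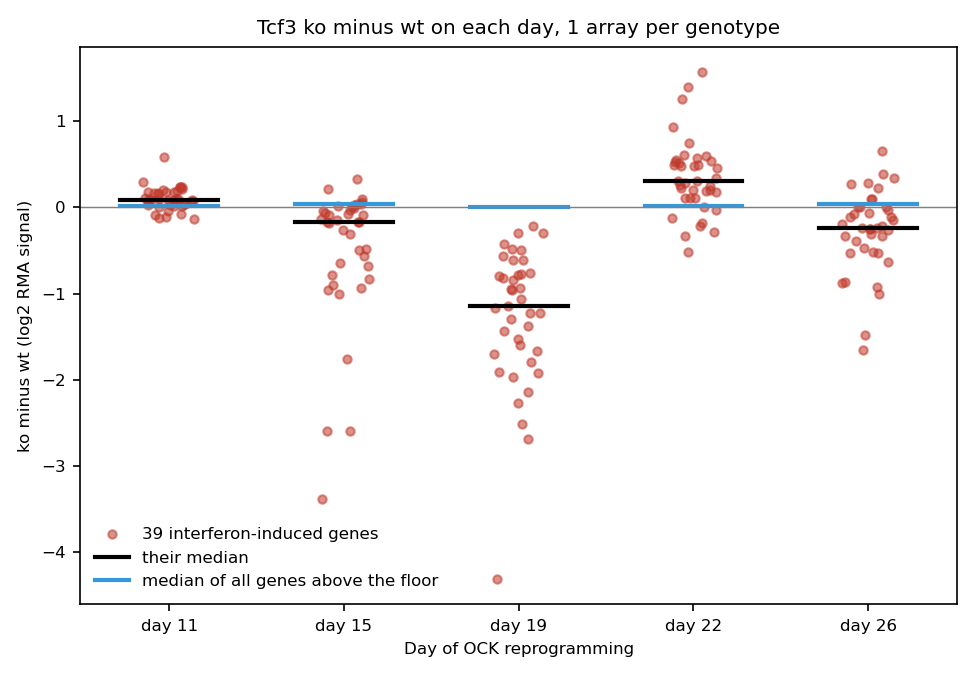
Tcf3 ko minus wt in log2 RMA signal for 39 interferon-induced genes (points) on 5 days of OCK reprogramming, 1 array per genotype and day, with their median (black) and the median of all genes above the floor (blue). On day 19 all 39 points lie below 0, with a median of -1.14, and on day 22 the median is 0.31.

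The 2 genes whose ko minus wt difference varied most over the 5 days were Cxcl10 (SD 2.47) and Rsad2 (SD 1.48). For Cxcl10, ko minus wt was 0.23, -3.38, -4.30, 1.56 and -0.53 on the 5 days. For Rsad2 (viperin, which makes a chain-ending nucleotide) it was -0.13, -2.59, -1.90, 0.55 and 0.66. Ifit1 had 0.16, -0.79, -2.69, 0.93 and -1.65, so ko was the higher of the 2 on days 11 and 22. Ifitm3 had the smallest difference on day 19, -0.22.

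Markers of other cells also changed over the culture. Of 14 macrophage and blood markers with a probe set, 13 were above the floor in some culture. Of these 9 fell per day (18.7% of all genes fell and 18% rose), among them Lyz2 (-0.20), C1qb (-0.17), C1qa (-0.15) and Tyrobp (-0.15). In wt alone the slopes of Cd68, Cd14 and Laptm5 were -0.0109, -0.0035 and 0.0016 per day. Cd68 was higher in ko than in wt by 1.87 on day 26. The sum of the 14 log2 signals was 103.01, 110.24, 93.42, 87.38 and 92.17 in ko and 102.41, 107.42, 92.68, 89.01 and 89.18 in wt on the 5 days. It rose from day 11 to 15 and from day 22 to 26 in both genotypes. It fell from day 15 to 19 and from day 19 to 22 in both. Where it rose, 35 of 39 and 35 of 38 interferon-induced genes were lower in ko (49.7% and 50.9% of all genes). In wt 11 of 39 and 30 of 37 were lower there (50.9% and 53.7%). Where it fell, 39 of 39 and 14 of 38 were lower in ko (53.9% and 49.2%). In wt 36 of 39 and 39 of 39 were lower there (49.9% and 52.2%). C1qa, C1qb, C1qc, Tyrobp and Adgre1 were at the floor from day 22 on in both genotypes, Ptprc was above it only on day 15, and Itgam was at the floor on all 18 arrays. Fibroblast markers fell in 7 of 12 genes (18.7% of all genes fell), and 6 of 7 epithelial and 7 of 10 pluripotency markers rose (18% of all genes). On day 19, where ko and wt differed most, the macrophage markers were lower in ko in 3 of 11 genes above the floor, with a median of 0.07, and the fibroblast markers in 6 of 12, with a median of 0.00. The part of these cells in the fall over days was not tested.

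Most interferon-induced genes were higher in the partial clone than in the established clones. In limma, with group means over 8 arrays and groups weighted alike, 35 of 38 tested genes were higher in the partial clone and 2 were lower, against 27.4% of genes that were higher and 37.3% that were lower. The median difference was 1.96 log2 units, against -0.06 over all genes. Every partial array lay above every established array for 31 of the 38 genes (24.5% of genes) and below for 2 (33.1%). Oas3 did not pass (0.44 ± 0.18, adjusted p = 0.0685), and Mx1, at the floor on all 8 arrays, was not tested. A comparison of 3 arrays of 1 clone with 5 arrays of other clones cannot separate the partial state from that clone. Fibroblast markers were also higher in the partial clone in 9 of 12 genes, and pluripotency markers lower in 9 of 10; their part in the difference was not tested.

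The 3 largest differences were those of Rtp4, Lgals3bp and Psmb8. Rtp4 had 9.94 and 10.61 with Tcf3 siRNAs and 10.35 with control siRNA in the partial clone, against the floor on all 5 established arrays, a difference of at least 25.2-fold (adjusted p = 4.39e-06). Psmb8, an immunoproteasome subunit, had 10.22, 9.98 and 9.67 in the partial clone, against 5.64 and 6.06 (OCK ko), 5.64 and 5.87 (OSK ko) and 5.64 (OSK wt), a difference of 4.13 ± 0.13 (adjusted p = 3.42e-06). Lgals3bp, a secreted glycoprotein that binds galectins, had 9.43, 10.15 and 9.97 in the partial clone, against 5.64 to 5.80 in the established clones (4.16 ± 0.17, adjusted p = 8.24e-06). In none of these genes did the 2 kinds of clone overlap, which adds no support, since they were picked as the largest differences.

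Oas2, Xaf1 and Samd9l were higher by 3.69 ± 0.13, 3.53 ± 0.12 and 3.49 ± 0.09. For Xaf1 this depends on the probe set: the other one had 9.67, 9.94 and 10.14 in the partial clone, against 10.23 and 9.60 (OCK ko), 6.90 and 6.94 (OSK ko) and 7.12 (OSK wt), so the partial clone overlapped the OCK ko clones. Among the factors Irf7 had 7.55, 7.88 and 8.28 in the partial clone, against 5.64 to 5.91 in the established clones (2.28 ± 0.12), and Irf9 and Irf1 were higher by 1.39 ± 0.10 and 1.32 ± 0.08. Stat2 ran the other way, with 6.17, 6.27 and 6.48 in the partial clone, against 6.74 to 7.33 in the established clones (-0.78 ± 0.08, adjusted p = 0.000333). Trim25, the ubiquitin ligase that activates the sensor RIG-I, did so too (9.91, 9.92 and 9.99, against 10.38 to 10.79, -0.63 ± 0.09, adjusted p = 0.00144).

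Of the 39 genes 10 were at the floor on all 5 established arrays (27.4% of all genes were), namely Usp18, Dhx58, Zbp1, Oasl2, Ifit1, Ifit3, Mx1, Rtp4, Gbp2 and Gbp3. All of these but Mx1 were above the floor on all 3 partial arrays and on all 10 culture arrays. Of all genes, 1.51% were at the floor on all established arrays and above it on all partial arrays. With the culture arrays in place of the partial ones the share was 2.06%. A second Zbp1 probe set lay above the floor in the established clones, at 5.69 to 6.08. Day 11 cultures exceeded the established clones by at least 135-fold for Ifit1, 124-fold for Rtp4, 79.5-fold for Ifit3 and 50.3-fold for Usp18. In the partial clone the same bounds were 6.12-fold for Ifit1, 25.2-fold for Rtp4, 3.19-fold for Ifit3 and 4.92-fold for Usp18.

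**Figure D4:**
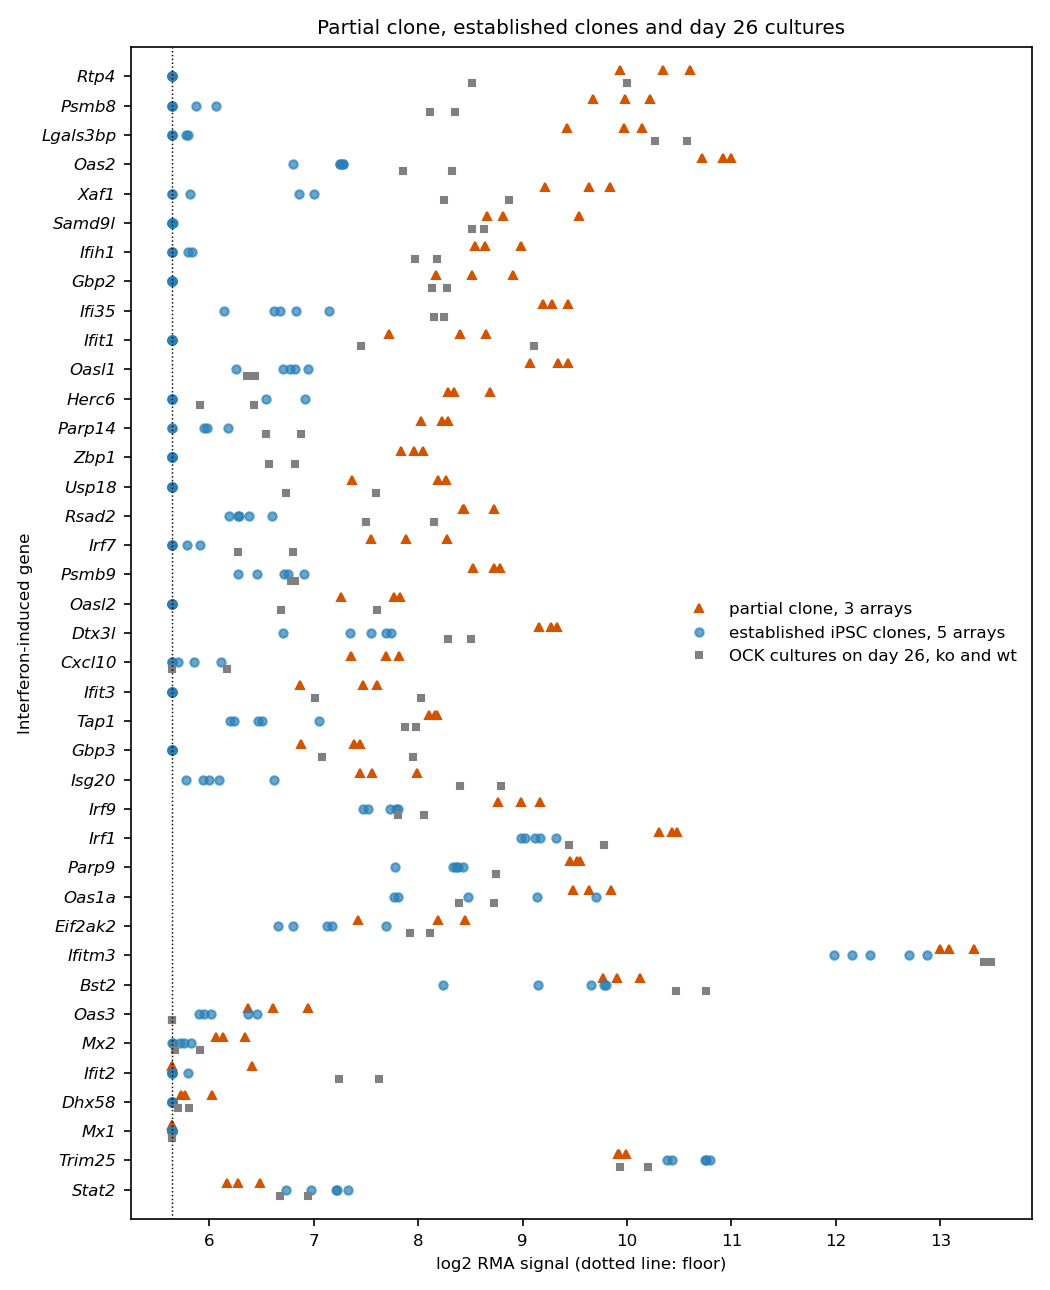
Log2 RMA signal of 39 interferon-induced genes in the partial OCK clone (triangles, 3 arrays), the established iPSC clones (circles, 5 arrays) and the OCK cultures on day 26 (squares, ko and wt), ordered by the difference between partial and established means, with the floor of 5.64 dotted. Every partial array lies above every established array in 31 genes and below in 2, Stat2 and Trim25.

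Against the cultures, the established clones were lower in all 39 genes than day 11 (limma over all arrays, 33.6% of genes lower and 41.6% higher), with a median of -3.25. Against day 26 they were lower in 25 of 38 genes (29.8%), higher in 2 (40.1%) and not called in 11, with a median of -1.05. Lgals3bp (-4.70 ± 0.21), Rtp4 (-3.62 ± 0.43) and Samd9l (-2.93 ± 0.20) lay farthest below day 26, and the 2 above it were Oas3 (0.55 ± 0.20, adjusted p = 0.0265) and Trim25 (0.51 ± 0.12, adjusted p = 0.00203). Without the wt day 26 array 18 of 38 were called, against 27 with it. Fibroblast markers were lower in 12 of 12 genes in the same comparison, and pluripotency markers higher in 9 of 10.

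Set against day 26 cultures, the partial clone differed in both directions. Of 38 genes 17 were higher in the partial clone (27% of genes), 4 were lower (24.6%) and 17 were not called. Those higher included Oasl1, an OAS-like protein that in mice limits Irf7 translation, with 9.34, 9.07 and 9.44 in the partial clone, against 6.36 (ko) and 6.44 (wt) on day 26 (2.92 ± 0.26, adjusted p = 2.77e-06). Oas2 (2.80 ± 0.33), Herc6 (2.33 ± 0.39), Psmb9 (1.89 ± 0.35) and Psmb8 (1.65 ± 0.30) were also higher. For Herc6 the size depends on the probe set. Another one had 7.65, 7.37 and 7.55 in the partial clone, against 6.80 (ko) and 7.03 (wt) on day 26. There OCK ko clone 2 had 7.39, so the partial and established arrays overlapped on that probe set. The 4 lower were Ifit2 (-1.41 ± 0.40), Isg20 (-0.85 ± 0.22), Bst2 (-0.63 ± 0.23) and Ifitm3 (-0.35 ± 0.11). Ifit1 and Ifit3 did not pass (0.07 ± 0.68 and -0.13 ± 0.64). Irf1, Oasl1, Psmb8 and Psmb9, 4 of 39 genes, had a higher mean in the partial clone than on day 11, as did 54.7% of genes. Of the macrophage markers, C1qa, C1qb, C1qc, Tyrobp, Adgre1, Ptprc and Cd53 were at the floor in the partial clone. Cd68, Csf1r, Lyz2, Fcer1g, Cd14 and Laptm5 were above it on at least 1 partial array. Of the 14 markers 4 to 6 were above the floor on each partial array, and 4 to 5 on each established array. The sum over the list was 82.78 to 83.73 in the partial clone, against 81.66 to 83.23 in the established clones. Each marker at the floor adds 5.64 to this sum, so much of it is floor in both. Fibroblast markers were lower in the partial clone than on day 26 in 12 of 12 genes, with a median of -3.10, and epithelial markers in 6 of 7, with a median of -2.94. The part of these markers' cells in the difference was not tested.

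Depleting or deleting Tcf3 in clones gave no call. With Tcf3 siRNA minus control siRNA in the partial clone 0 of 38 genes passed in limma (0.111% of genes were lower and 0% higher), 5 had an unadjusted p under 0.05, and the smallest adjusted p was 0.114. The estimates had a median of -0.23, and 23 of 38 genes were lower with both siRNAs than with control (39.8% of genes) and 3 higher with both (36.6% of genes). Samd9l had 8.66 (siTcf3-A) and 8.81 (siTcf3-B) against 9.54 with control siRNA, and Ifit2 had 5.65 and 5.64 against 6.41. The 2 siRNAs differed from each other too, with siTcf3-A below siTcf3-B in 29 of 38 genes (38.6% of all genes). The lone control array is assumed to vary like the other groups, and the plain prior over all genes called 3 of 38, and 2 were called without OCK ko clone 1 or 2.

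In OSK clones 0 of 26 genes above the floor passed for ko minus wt (0.387% of genes were lower and 0.3% higher), with 4 at an unadjusted p under 0.05 and a smallest adjusted p of 0.0817, for Tap1 (6.47 and 6.5 in ko against 7.05 in wt). The plain prior called 2 of 26, and without OCK ko clone 1 or 2 the count was 4 each. The effect of the siRNA in the partial clone and that of the knockout in OSK clones were not shown to differ, with 0 of 38 differences called in limma, 7 at an unadjusted p under 0.05 and a smallest adjusted p of 0.207.

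Between OCK ko and OSK ko clones 4 of 28 genes were higher in OCK (4.87% of genes were higher) and 0 were lower (5.8%). Oas1a had 9.14 and 9.71 in OCK ko against 7.77 and 7.81 in OSK ko (1.64 ± 0.21, adjusted p = 0.0107), and the OSK wt sample had 8.47. Xaf1 had 7.0 and 6.86 against 5.64 and 5.82 (1.20 ± 0.16, adjusted p = 0.0117). Herc6 had 6.54 and 6.92 against the floor in both OSK ko clones, a log2 difference of at least 1.09 (adjusted p = 0.0101), and Ifitm3 had 12.70 and 12.87 against 12.15 and 11.98 (0.72 ± 0.13, adjusted p = 0.0225). The groups do not overlap in any of these. That adds no support, because the genes were picked by this same comparison of 2 arrays with 2. With all clones 10 genes had an unadjusted p under 0.05 in limma. Of these, Stat2, Bst2, Parp14, Dtx3l, Tap1 and Psmb9 were lower in OCK ko. The calls rest on the OSK ko clones, and none of the 4 genes was called without either of them. Without OCK ko clone 1 or 2 the count was 11 or 8, and the plain prior over all genes called 1 gene, lower in OCK ko.

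Other parts of the pathway were followed as named lists. Of 7 interferon genes with a probe set, Ifnb1, Ifna2, Ifna4, Ifna9, Ifna11 and Ifng were at the floor on all 18 arrays, and Ifnz lay between 5.87 and 7.64. Of 10 receptor and kinase genes 8 fell per day in culture and 0 rose (18.7% of all genes fell and 18% rose), led by Il10rb (-0.10 ± 0.02), Ifngr2 (-0.08 ± 0.02), Jak1 (-0.07 ± 0.02) and Jak2 (-0.07 ± 0.02). The type I receptor genes Ifnar1 and Ifnar2 were above the floor on every array, from 7.69 to 8.84 and from 7.97 to 11.05. In the partial clone against established clones 8 of 10 were higher and 1 lower, against 27.4% and 37.3% of all genes. Of 14 genes that sense nucleic acids or induce interferon 7 fell per day and 0 rose, against the same shares of 18.7% and 18%, led by Ddx58 (RIG-I, -0.11 ± 0.02) and the adaptor Myd88 (-0.10 ± 0.02). Among 8 negative regulators 3 fell, Adar (-0.09 ± 0.02), Socs1 (-0.08 ± 0.02) and Samhd1 (-0.05 ± 0.01). The phosphatases Ptpn6 (0.13 ± 0.02) and Ptpn2 (0.03 ± 0.01) rose. Of all genes 18.7% fell and 18% rose, and whether the counts in this list of 8 differ from those shares was not tested.

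A wider list of interferon-induced genes, none of them among the 41, was set beside them. Of 52 tested 39 fell per day and 0 rose (18.7% and 18% of all genes), with a median of -0.12, and the most negative were Cxcl9 (-0.25 ± 0.06), Irgm1 (-0.22 ± 0.03), Ifi27l2a (-0.21 ± 0.03) and Ccl5 (-0.20 ± 0.02). On day 19 they were lower in ko than in wt in 47 of 51 genes (48.9% of all genes), with a median of -0.73, and on day 22 in 18 of 49 (47.4%), with a median of 0.06. Averaged over the days, 0 of 52 passed for ko minus wt in limma, 6 had an unadjusted p under 0.05 and 47 of 52 estimates were negative. In the partial clone 32 of 48 were higher than in the established clones and 7 lower, against 27.4% and 37.3% of all genes.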

How the data were processed

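Gene expression was measured on 18 Affymetrix arrays. The deposited values are log2 signals that the authors normalized with RMA, per the submitters' processing notes; the sources used here give neither its version nor its settings, and the floor at the log2 of 50 was read from the values. Of 40508 probe sets, 31076 carry 1 gene symbol in the platform annotation, 636 several and 8796 none, and the last 2 kinds were not used. Each gene was taken from its probe set with the highest mean over all arrays.

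Tests used limma 3.58.1 in R 4.3.3, fitted over all genes with p-values adjusted by Benjamini-Hochberg and called under 0.05. The prior variance came from genes that never touched the floor among the arrays fitted, floored genes were given at least that variance, and genes at the floor on all compared arrays were not tested. The scripts were tested on simulated data. Lone arrays (OSK wt, control siRNA) were assumed to vary like the other groups. The alternatives were the mean of probe sets, a plain limma prior, unfloored genes only, quantile normalization, a day block, lines through day means, a replicate block and leaving out arrays. All 41 listed genes were eligible to be named, and of other lists the 4 largest passing changes per day in each direction, with ligand and receptor genes where their level was needed. The genes and lists were chosen with earlier results of these data known.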

Additional observations from a re-analysis of the deposited data

How the results depend on the processing

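No gene called in the reported fits changed sign under the alternatives run. A plain limma prior over all genes gave 0 calls for the change per day in ko, 5 for the step from day 15 to 19, 3 for Tcf3 siRNA, 2 for OSK ko against OSK wt and 1, lower in OCK ko, for OCK ko against OSK ko. With only genes that never touched the floor among the arrays fitted, which tests fewer genes, 1 gene was called from day 19 to 22, 17 for partial against established clones, 2 for OCK ko against OSK ko, 17 and 11 for established clones against day 11 and day 26, and 12 for the partial clone against day 26. Quantile normalization called 1 gene from day 19 to 22. For the other moves the cause was not tested.

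Leaving out arrays in turn gave 0 to 36 calls for the change per day in both genotypes, 0 to 26 in ko (6 without day 19) and 0 to 1 in wt. It gave 0 to 0 for ko minus wt, for the slope difference and for the steps from day 11 to 15 and from day 22 to 26, 14 to 26 for day 15 to 19 and 0 to 1 for day 19 to 22. The ranges were 35 to 37 for partial against established clones, 0 to 2 for Tcf3 siRNA, 0 to 4 for OSK ko against OSK wt, 0 to 11 for OCK ko against OSK ko, 37 to 38 and 18 to 27 for established clones against day 11 and day 26, and 14 to 20 for the partial clone against day 26.

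The OCK ko and OSK ko clones share only a clone number, and their deviations by number correlated at -0.13 over 11603 genes. With the clone number as a replicate block 5 genes were called, against 4 without the block. With crossed numbers, an alternative chosen after seeing the data, the count was also 5. Signals below the floor are not resolved, so values of genes at the floor limit differences from the established clones.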

Other observations

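The genes of this section belong to the wider list of interferon-induced genes and were chosen after their values were seen. Mndal, an interferon-inducible HIN-200 family gene, had 10.95 and 11.18 with Tcf3 siRNAs and 11.82 with control siRNA in the partial clone, against the floor on all 5 established arrays (limma, adjusted p = 8.46e-07). Nmi, which binds Stat proteins, had 10.55, 10.48 and 10.46 in the partial clone, against 5.68 to 6.79 in the established clones (4.37 ± 0.09, adjusted p = 1.28e-06). In both genes the partial and established arrays did not overlap.

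Other members of that list lay higher in the established clones. Pml, the organiser of nuclear bodies, had 8.34, 8.30 and 8.45 in the partial clone, against 9.84 to 10.44 in the established clones (-1.82 ± 0.07, adjusted p = 5.71e-06). Phf11d had 8.52, 8.52 and 8.90, against 10.11 to 11.07 (-1.72 ± 0.08, adjusted p = 1.4e-05). All partial arrays lay below all established arrays for both.

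The courses of the chemokine gene Cxcl9 and the nucleotide kinase gene Cmpk2 were also followed. Cxcl9 had 8.82, 9.01, 5.77, 7.79 and 5.64 in ko cultures on days 11, 15, 19, 22 and 26, and 9.25, 9.48, 8.58, 5.64 and 5.76 in wt cultures. Cmpk2 had 7.85, 6.83, 5.64, 6.22 and 5.64 in ko and 8.07, 9.63, 7.43, 5.64 and 5.79 in wt. In both genes ko was lower than wt on day 19 and higher on day 22, with 1 array per genotype and day and no test of single days.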
